A study of Mus musculus with 15 samples.

Results

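The 10 genes described here are H19, Igf2, Igf2r, Meg3, Dlk1, Cdkn1c, Peg3, Plagl1, Grb10 and Mest, imprinted genes of growth control in the mouse. They were taken by symbol from the 37620 gene identifiers of the expression files, and all 10 matched an identifier and passed the filter on low counts that left 16001 genes to test. The list was chosen with the expected counts of these libraries already known, so differences between diets in its members are a description: how many passed the fit across all genes is counted, and nothing rests on those counts. RNA was sequenced from lung metastases of B16-F10.1, a pigmented mouse melanoma line, grown in male C57BL/6J mice that were 8 weeks old and had received 100000 tumour cells by a tail vein 21 days before the change of diet. The mice were fed a diet deficient in methionine (0%, n = 3) or restricted in it (25%, n = 3). Others had a diet adequate in it (n = 3, no percentage given) or supplemented with it (300%, n = 6). All 15 libraries share the line, the host strain and the host sex. The schedule, 21 days and then 2 weeks on the diet, is described for the other 3 diets and not for the supplemented one. No label ties a library to a mouse of its own, so the p-values rest on spread among libraries that may be partly technical. A library here is a bulk mixture of tumour and host cells, in which fewer cells of a type and less RNA per cell cannot be told apart.

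Imprinted genes are transcribed mainly from the copy inherited from one parent, and DNA methylation laid down in the germ line is the mark that tells the parental copies apart. Methionine is the precursor of S-adenosylmethionine, the methyl donor for that mark. Igf2 is a growth factor of fetal tissue, Igf2r binds it at the cell surface and carries it to the lysosome, and H19 is the noncoding RNA of the same domain, made from the maternal copy and kept on after birth in skeletal muscle. Plagl1, also called Zac1, is a zinc finger factor known in mice to control a set of imprinted genes that includes H19, Igf2, Dlk1 and Cdkn1c.

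H19 and Mest also host microRNAs, whose mature sequences from RefSeq (GRCm38.p6) are shown because both hosts peaked in one and the same library. The seed, bases 2 to 8, is in capitals.
miR-675-5p, from H19: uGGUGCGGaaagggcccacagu
miR-675-3p, from H19: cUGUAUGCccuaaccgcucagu
miR-335-5p, from Mest: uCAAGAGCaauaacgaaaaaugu
No seed is shared among these 3 microRNAs. The genes of miR-675, miR-335, miR-483 (in Igf2) and miR-770 (in Meg3) were each listed at 0 counts in all 15 libraries, so the host transcripts alone are measured here.

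RefSeq start windows (GRCm38.p6, 300 bases around a gene's start) were at hand for 8 of the 10 genes, with 15 starts in all; H19 and Cdkn1c had no entry. The windows of Plagl1 (chr10:13090582-13090881, plus strand) and Igf2r (chr17:12769657-12769956, minus strand) are shown because these were the most abundant members, with each CG pair, the site of DNA methylation, in capitals.
Plagl1: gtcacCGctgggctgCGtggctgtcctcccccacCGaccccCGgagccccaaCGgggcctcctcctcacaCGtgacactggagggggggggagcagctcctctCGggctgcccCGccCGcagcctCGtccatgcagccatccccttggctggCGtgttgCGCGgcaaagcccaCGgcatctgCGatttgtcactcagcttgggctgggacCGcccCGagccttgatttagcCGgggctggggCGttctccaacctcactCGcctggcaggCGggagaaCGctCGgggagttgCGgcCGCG
Igf2r: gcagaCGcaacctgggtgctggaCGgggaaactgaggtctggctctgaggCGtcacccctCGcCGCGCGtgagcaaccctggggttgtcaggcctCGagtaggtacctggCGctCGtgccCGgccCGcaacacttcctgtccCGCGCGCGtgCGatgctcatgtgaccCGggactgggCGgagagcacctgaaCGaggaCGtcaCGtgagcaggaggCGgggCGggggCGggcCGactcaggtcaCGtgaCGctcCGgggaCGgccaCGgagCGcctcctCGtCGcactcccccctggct
Plagl1 held 26 CG pairs and Igf2r held 34, against a median of 7 over all 32851 windows of this length. Among all windows, 83.1% had fewer CG pairs than Plagl1 and 92.3% had fewer than Igf2r. The window of Peg3 (chr7:6730370-6730669, minus strand) is shown for a GC-rich palindrome known as a binding sequence of Plagl1, which is in capitals.
Peg3: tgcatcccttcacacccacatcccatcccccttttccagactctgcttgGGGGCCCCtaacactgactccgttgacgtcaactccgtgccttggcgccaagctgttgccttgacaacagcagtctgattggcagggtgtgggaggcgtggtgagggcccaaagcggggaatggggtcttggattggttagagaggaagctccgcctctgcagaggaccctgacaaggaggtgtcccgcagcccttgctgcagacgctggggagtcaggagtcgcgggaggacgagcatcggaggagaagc
The letters GGGGCCCC, which read the same on both strands, occurred in 1 of the 15 members' windows, that of Peg3, and in 354 of the 32851 windows (1.08%). DNA methylation and factor binding were not measured in these libraries.

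Sequencing depth ran from 13107679 to 29994264 expected counts per library. Levels are given as CPM, counts per fixed library size after TMM scaling, except where genes are compared with each other, which uses TPM, a value per transcript length. The melanocyte list held in every library: its 12 markers summed to 14800 to 28890 CPM, and none was at 0. Cells of normal lung varied widely. The 11 markers of alveolar type 2 cells summed to 6826 CPM in deficient replicate 3, against 124.5 to 1902 CPM in the other 14 libraries. In supplemented replicate 5 the 14 markers of skeletal muscle summed to 1901 CPM, against 2.38 to 10.7 CPM elsewhere, and all 14 were at their highest there. Adequate replicate 1 had a TMM factor of 0.690, the lowest of the 15.

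**Figure D1:**
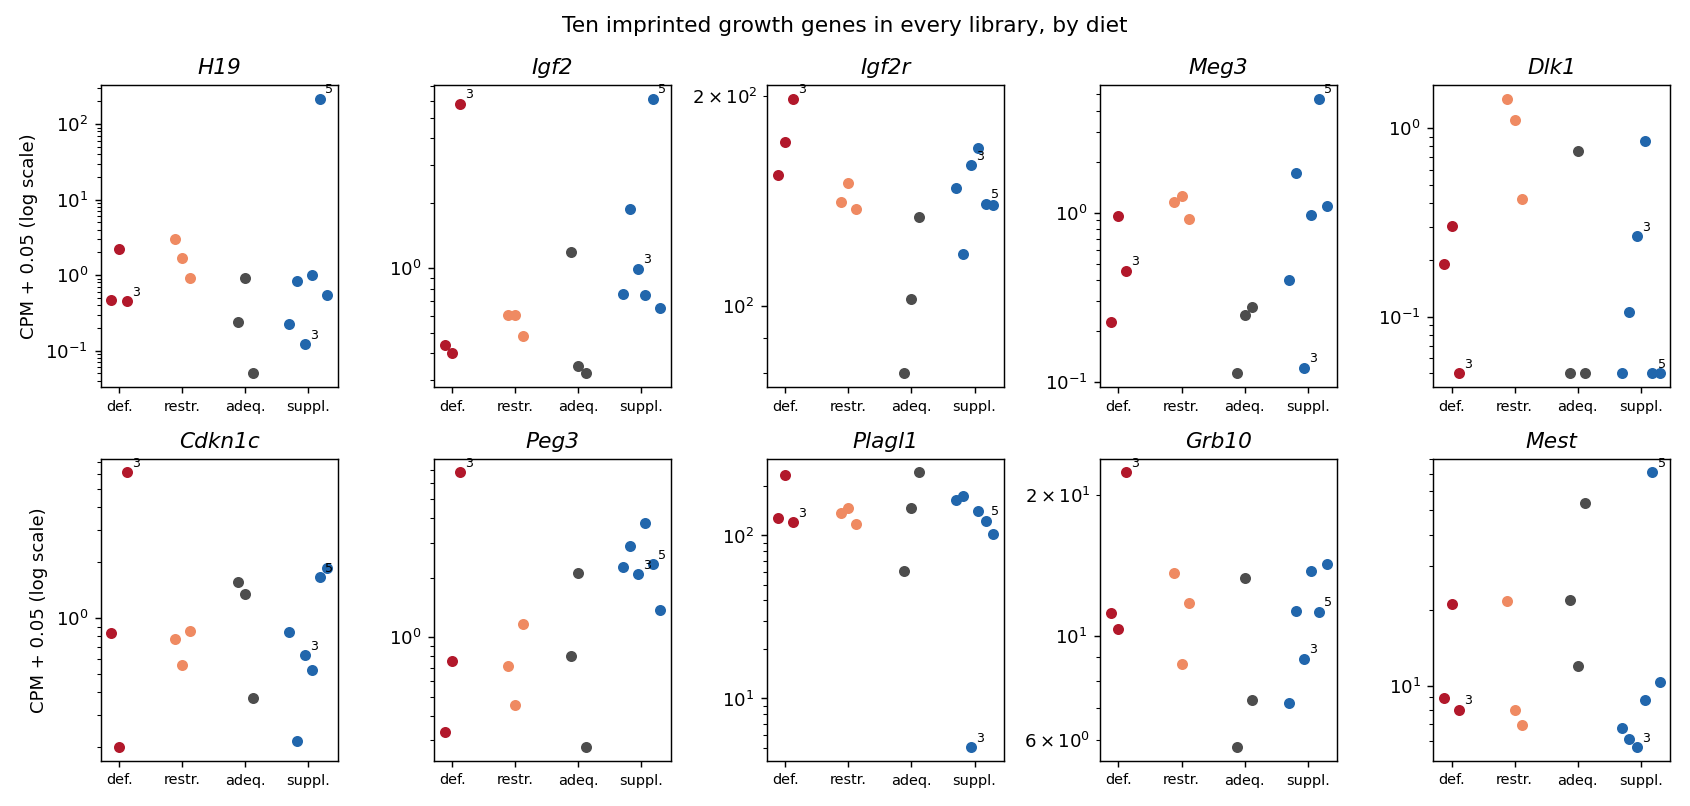
CPM plus 0.05 of each of the 10 genes in every library, on a log axis that differs between panels, by diet from low to high methionine; each point is 1 library, and replicate numbers mark deficient 3, supplemented 3 and supplemented 5. H19 reaches 216.9 CPM in supplemented replicate 5, and Plagl1 drops to 4.98 CPM in supplemented replicate 3.

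Plagl1 and Igf2r were by far the most abundant members, with median TPM over the 15 libraries of 27.1 and 7.69. Mest followed at a median TPM of 3.16 and Grb10 at 1.44. The remaining 6 genes stood under 1, with median TPM of 0.31 for Meg3, 0.28 for H19, 0.17 for Cdkn1c, 0.15 for Igf2, 0.12 for Peg3 and 0.05 for Dlk1. These rested on few counts. Summed over all libraries, Meg3 had 255 counts and Igf2 351, while Plagl1 had 41296 and Igf2r 41846. H19 had 3735 counts, but 3500 of them came from supplemented replicate 5, and each other library had 0 to 54. Spread within a diet followed another order. On the log2 CPM scale the within-diet SD was 0.215 for Igf2r, 0.469 for Grb10 and 1.15 to 2.68 for the other 8 members, against a median of 0.420 over all tested genes. Without supplemented replicate 5 it was 1.20 for H19 and 0.751 for Mest.

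Of the noncoding RNAs, H19 was near silent in 14 libraries and abundant in the remaining one. It stood at 0.424, 2.16 and 0.405 CPM in the deficient libraries and at 2.98, 1.61 and 0.863 CPM in the restricted libraries. The adequate libraries had 0.189, 0.853 and 0 CPM. Across the 6 supplemented libraries H19 had a lowest level of 0.0722, a median of 0.636 and a highest of 216.9 CPM. Supplemented replicate 5 alone carried 94.8% of the CPM summed over all libraries, from 3500 counts, and the next library, restricted replicate 1, was 72.7-fold lower. Against the median of the other supplemented libraries, H19 in replicate 5 was 439.5-fold higher. Among the 16001 tested genes that gap was the fourth highest in this library, after the muscle genes Acta1, Atp2a1 and Actn3, which encode the skeletal actin, calcium pump and actinin of muscle fibres. Of its neighbours in that library, Igf2 on one side had 6.07 CPM, against 0.603 to 1.84 CPM in the other supplemented libraries, a log2 difference of 2.93 from their median. Mrpl23, a mitochondrial ribosomal protein gene on the other side, had 0.620 CPM, against 0.176 to 1.61 CPM. Further out, Prr33 had 1.302 CPM, against 0 to 1.32 CPM, and Ctsd, encoding a lysosomal protease, had 1375 CPM, against 1110 to 1511 CPM. Of the 10 nearest tested neighbours, 5 lay above the range of the other supplemented libraries. Igf2 and Tssc4 (58.5 CPM, against 23.9 to 41.1 CPM) were among them. Tspan32 was the 1 below the range, at 0 CPM against 1.01 to 3.29 CPM. The share of all tested genes outside their own range in that library was not counted, so nothing is read from these counts of neighbours.

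Meg3, the maternally expressed noncoding RNA of the Dlk1 domain, was also highest in supplemented replicate 5. Its level was 0.177, 0.903 and 0.405 CPM in the deficient libraries, 1.11, 1.21 and 0.863 CPM in the restricted libraries, and 0.0630, 0.201 and 0.227 CPM in the adequate libraries. The supplemented libraries ran from 0.0722 to 4.65 CPM with a median of 0.978 CPM. All 3 restricted libraries thus lay above all 3 adequate ones, as in 8.37% of all tested genes, while the supplemented range overlapped both. H19 and Meg3 had a Spearman rho of 0.732 over 15 libraries and 0.67 over the 14 without supplemented replicate 5, and H19 and Dlk1 had 0.566 and 0.802. Over 15 libraries H19 and Meg3 were the highest of the 45 pairs of members, and over 14 H19 and Dlk1 were. These points share libraries and scaling, and most rest on fewer than 50 counts.

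Igf2, the fetal growth factor, had 2 high libraries. It stood at 0.388, 0.351 and 5.74 CPM in the deficient libraries, 0.553, 0.555 and 0.432 CPM in the restricted libraries and 1.13, 0.301 and 0.273 CPM in the adequate libraries. In the supplemented libraries the lowest level was 0.603, the median 0.822 and the highest 6.07 CPM, in replicate 5. Deficient replicate 3 and supplemented replicate 5 therefore stood apart, with 85 and 98 counts, and the next was supplemented replicate 2 with 33 counts. In supplemented replicate 5 H19 exceeded Igf2 by far, and in deficient replicate 3 H19 was at 0.405 CPM, so the neighbouring genes were both high in the first library and Igf2 alone in the second.

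Dlk1, a transmembrane protein of the Notch ligand family that marks immature cells, was the scarcest member. Its level was 0.141, 0.251 and 0 CPM in the deficient libraries and 1.38, 1.06 and 0.370 CPM in the restricted libraries. The adequate libraries had 0, 0.702 and 0 CPM, and the supplemented libraries ran from 0 to 0.805 CPM. In all, 6 libraries were at 0, supplemented replicate 5 among them, so Dlk1 did not share the peak of Meg3. The restricted libraries were all above the deficient ones, as in 6.38% of all tested genes, on at most 25 counts each.

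Mest, an alpha/beta hydrolase expressed from the paternal copy in embryonic mesoderm, also peaked in supplemented replicate 5. Deficient libraries had 8.90, 21.1 and 7.97 CPM, restricted libraries had 21.8, 7.92 and 6.91 CPM, and adequate libraries had 22.0, 11.9 and 53.4 CPM. The supplemented libraries had a lowest level of 5.63, a median of 7.68 and a highest of 70.8 CPM. A second high library, adequate replicate 3, had 7.41 CPM of summed muscle markers and no H19 count. Copg2, the adjoining gene, which encodes a coatomer subunit, had 99.4 CPM in supplemented replicate 5 and 94.8 CPM in adequate replicate 3, against 73.4 to 88.2 CPM in the other supplemented and 73.3 to 93.3 CPM in the other adequate libraries. Mest counts were not whole numbers, which is how RSEM reports reads shared with another gene, and its level is uncertain to that extent.

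**Figure D2:**
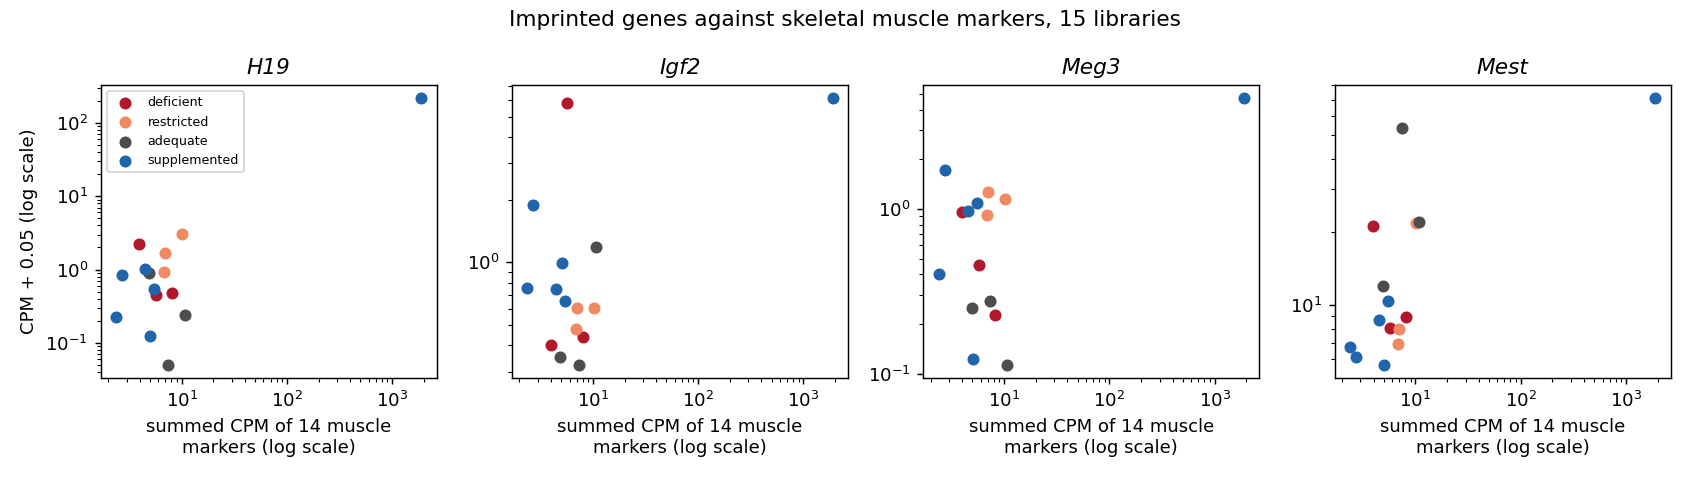
Level of H19, Igf2, Meg3 and Mest (CPM plus 0.05, log axis) against the summed CPM of 14 skeletal muscle markers (log axis) in 15 libraries, colored by diet. The point at 1901 CPM of muscle markers is supplemented replicate 5, which is highest for all 4 genes, while the other 14 libraries lie between 2.38 and 10.7 CPM of muscle markers.

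Supplemented replicate 5 thus held the highest CPM of 4 of the 10 members (H19, Igf2, Meg3 and Mest). Of all tested genes, 11.8% had their highest CPM in that library. On the TPM scale Igf2 was highest in deficient replicate 3 instead, at 1.82 TPM, against 1.41 TPM in supplemented replicate 5. Plagl1 (41.8 TPM), Peg3 (0.83 TPM) and Grb10 (11.55 TPM) had their highest TPM in supplemented replicate 5. In the same library the 6 mesothelial markers summed to 0.992 CPM, against 7.24 to 119.5 CPM elsewhere, the 9 airway markers summed to 1.98 CPM, and melanocyte markers to 26960 CPM. The part of muscle tissue in the levels of H19, Igf2, Meg3 and Mest was not tested. Over the 14 other libraries, in which muscle markers stayed under 11 CPM, the rho with the muscle list was -0.042 for H19, 0.02 for Igf2, -0.464 for Meg3 and 0.49 for Mest. Over all 15 it was 0.154, 0.204, -0.189 and 0.586 for the same genes.

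Igf2r, the receptor that removes Igf2, varied least of the 10 within diets. Its level was 154.3, 172.1 and 198.4 CPM in the deficient libraries, 141.1, 150.0 and 137.8 CPM in the restricted libraries and 79.9, 102.1 and 134.3 CPM in the adequate libraries. The supplemented libraries had a lowest level of 118.7, a median of 143.7 and a highest of 168.5 CPM. All deficient libraries lay above all restricted ones (as in 4.71% of all tested genes) and all restricted ones above all adequate ones (8.37%). The supplemented range overlapped the other 3. Deficient libraries averaged 174.9 ± 22.2 CPM (SD, n = 3), restricted 143.0 ± 6.33 CPM (SD, n = 3), adequate 105.4 ± 27.3 CPM (SD, n = 3) and supplemented 145.5 ± 17.3 CPM (SD, n = 6). The order did not follow the methionine content, since both the supplemented and the low-methionine diets had higher means than the adequate diet.

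**Figure D3:**
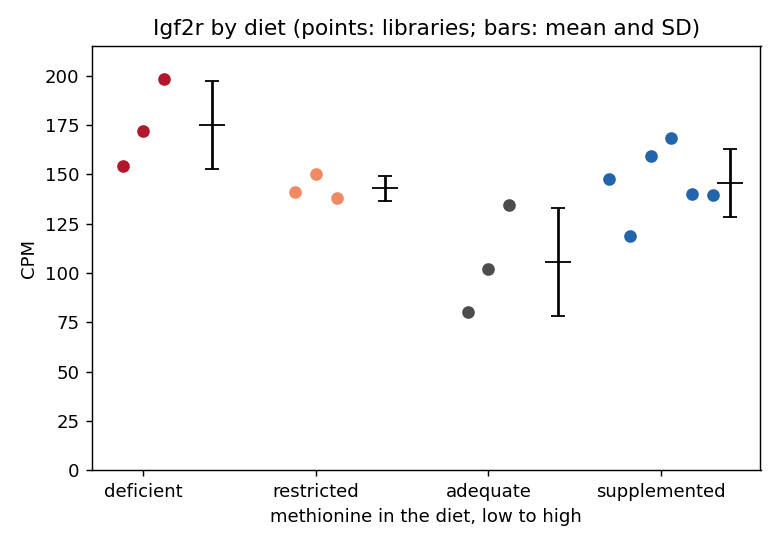
Igf2r in CPM by diet, low to high methionine, with 1 point per library and the mean and SD beside them (n = 3, 3, 3 and 6). The 3 deficient libraries sit between 154.3 and 198.4 CPM, above the 3 restricted (as in 4.71% of all tested genes) and the 3 adequate libraries (7.91%). The adequate libraries spread from 79.9 to 134.3 CPM.

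The log2 fold change of Igf2r was 0.73 (SE 0.190) in deficient against adequate, 0.44 (SE 0.189) in restricted against adequate and 0.46 (SE 0.167) in supplemented against adequate libraries. It was 0.29 (SE 0.189) in deficient against restricted and 0.27 (SE 0.162) in deficient against supplemented libraries. Comparisons with the adequate diet share its 3 libraries. Without adequate replicate 1, the lowest library, the 3 values against adequate were 0.56, 0.26 and 0.29. On the TPM scale the difference in mean log2 level between deficient and adequate libraries was 1.25, against 0.75 on the CPM scale. Adequate replicate 1 stood at 1.54 TPM there, against 5.41 and 6.96 TPM in adequate replicates 2 and 3. Airn, the noncoding RNA that runs antisense across the start of Igf2r and silences the paternal copy in mice, stood at 0.723 to 3.92 CPM. The strand setting of the counting is not given, so reads from the stretch where the 2 genes overlap cannot be told apart.

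Igf2r levels moved with markers of smooth muscle and pericytes, at a rho of 0.732 over 15 libraries and 0.771 without supplemented replicate 5. The 9 markers of that list summed to 125.7 to 321.9 CPM in deficient, 153.6 to 245.6 CPM in restricted, 82.7 to 89.7 CPM in adequate and 122.9 to 733.8 CPM in supplemented libraries, so the adequate libraries were lowest. In supplemented replicate 5, the library with muscle genes, Des alone gave 636.6 of the 733.8 CPM, and the other supplemented libraries reached at most 195.6 CPM. Endothelial markers had a rho of 0.561 with Igf2r, or 0.609 without that library. The endothelial sum was 2344 CPM in deficient replicate 3, 321.9 and 445.5 CPM in the other deficient libraries and 212.6 to 329.7 CPM in adequate libraries. All 13 endothelial markers passed an unadjusted p under 0.05 in edgeR, higher in deficient than in adequate libraries. In that comparison 15.1% of all tested genes passed in either direction, and 0 of the 13 were called after adjustment. The part of these cells in the Igf2r values was not tested. The 17 fibroblast markers had a rho of 0.304 with Igf2r and summed to 1450 to 2291 CPM in deficient, 1130 to 1724 CPM in restricted, 856.5 to 1198 CPM in adequate and 1232 to 1884 CPM in supplemented libraries. Likeness was ranked over 11865 genes that have a symbol and average 1 or more on the log2 CPM scale. The patterns most like that of Igf2r over 15 libraries were those of Ddr2, a collagen receptor kinase (rho 0.893), Vsig10 (0.886) and Ube4b, a ubiquitin ligase (0.882).

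Grb10, an adaptor protein that damps insulin and IGF receptor signalling, had 11.1, 10.3 and 22.3 CPM in the deficient libraries, 13.6, 8.68 and 11.7 CPM in the restricted libraries and 5.73, 13.2 and 7.23 CPM in the adequate libraries. The supplemented libraries ran from 7.14 to 14.2 CPM with a median of 11.2 CPM. Deficient replicate 3 was the single library above 15 CPM. Grb10 had a rho of 0.739 with the fibroblast list, 0.657 with the endothelial list and 0.586 with the airway list. With the alveolar type 1 and type 2 lists the rho was 0.614 and 0.593, and the remaining lists had 0.021 to 0.525. The part of these cells in the Grb10 values was not tested. Its closest pattern was that of Col6a2, a collagen VI chain (rho 0.911).

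Cdkn1c, an inhibitor of cyclin-dependent kinases that halts the cell cycle, had 0.777, 0.151 and 6.08 CPM in the deficient libraries, 0.719, 0.504 and 0.801 CPM in the restricted libraries and 1.51, 1.304 and 0.318 CPM in the adequate libraries. It ran from 0.167 to 1.81 CPM in the supplemented libraries, with a median of 0.685 CPM. Peg3, a zinc finger protein linked to p53-dependent cell death, had 0.283, 0.702 and 6.75 CPM in the deficient libraries, 0.663, 0.404 and 1.11 CPM in the restricted libraries and 0.756, 2.06 and 0.227 CPM in the adequate libraries. Its supplemented libraries had a lowest level of 1.32, a median of 2.25 and a highest of 3.73 CPM. For both genes deficient replicate 3 set the high deficient mean. Without it the deficient libraries averaged 0.464 CPM for Cdkn1c and 0.492 CPM for Peg3 (n = 2), against 2.33 and 2.58 CPM with it.

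Deficient replicate 3 held the highest CPM of 4 members, Igf2r, Cdkn1c, Peg3 and Grb10, where 22.9% of all tested genes peaked in that library. On the TPM scale Peg3 (0.83, against 0.43 TPM) and Grb10 (11.55, against 6.86 TPM) were higher in supplemented replicate 5. Deficient replicate 3 was also highest in 10 of 11 alveolar type 2, 10 of 10 alveolar type 1 and 12 of 13 endothelial markers. Its melanocyte markers summed to the lowest value of all libraries. The part of lung tissue in these 4 levels was not tested. With Cdkn1c, skeletal muscle markers had a rho of 0.646 over 15 libraries and 0.609 without supplemented replicate 5, and mesothelial markers had 0.496 and 0.723. Alveolar type 2 markers had 0.421 and 0.631, airway markers 0.386 and 0.587, and alveolar type 1 markers 0.35 and 0.543. Outside supplemented replicate 5 the muscle markers summed to only 2.38 to 10.7 CPM. Cdkn1c had 309 counts over all libraries, so its ranks rest on few counts.

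Plagl1, the zinc finger factor, stood between 60.9 and 243.5 CPM in 14 libraries and far lower in the remaining one. It stood at 127.9, 234.7 and 120.6 CPM in the deficient libraries, 136.4, 146.3 and 117.4 CPM in the restricted libraries and 60.9, 147.8 and 243.5 CPM in the adequate libraries. The supplemented libraries had a lowest level of 4.98, a median of 132.6 and a highest of 173.7 CPM. The lowest was replicate 3, with 69 counts; the next lowest supplemented library had 101.4 CPM. Its log2 CPM differed by -4.80 from the median of the other supplemented libraries, the eighth lowest such difference among the 16001 tested genes in that library. Without replicate 3 the supplemented libraries averaged 141.2 ± 29.8 CPM (SD, n = 5), against 118.5 ± 61.7 CPM (SD, n = 6) with it.

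The genes beside Plagl1 had smaller differences in that library, mostly in the same direction. Sf3b5, a splicing factor gene and its nearest tested neighbour on one side, had 40.1 CPM in supplemented replicate 3, against 43.3 to 72.7 CPM in the other supplemented libraries. Ltv1, a ribosome assembly gene on the other side, had 15.9 CPM, against 15.96 to 28.1 CPM. Of the 10 neighbours, 9 differed from the others' median by -0.46 to 0.35 on the log2 scale, and Gm9797, at 1.01 CPM, differed by -2.24. In all, 9 of the 10 lay below that median and 6 below the range of the other supplemented libraries. The share of all tested genes below their own median or range in that library was not counted, so nothing is read from these counts. H19 and Meg3 were also at their lowest supplemented level in that library, both 0.0722 CPM from 1 count, and Mest was at the lowest of all 15 libraries, 5.63 CPM. Among the known Plagl1 targets in mice, H19 was thus at its lowest supplemented level. Igf2 (0.939 CPM, 13 counts), Cdkn1c (0.578 CPM, 8 counts) and Dlk1 (0.217 CPM, 3 counts) lay inside the range of the other supplemented libraries. Whether these levels go with that of Plagl1 was not tested.

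**Figure D4:**
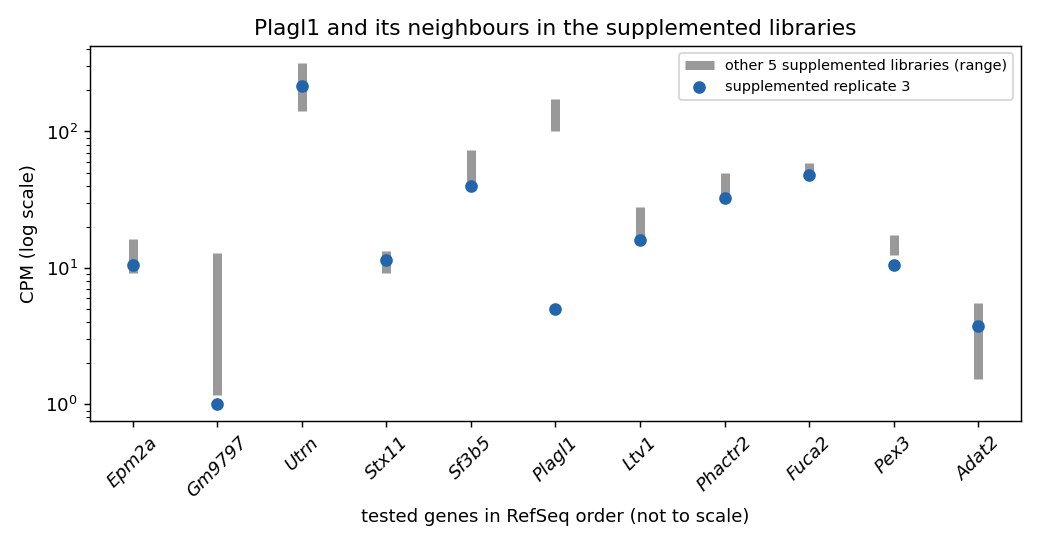
CPM (log axis) of Plagl1 and its 5 nearest tested genes on each side, in RefSeq order and not to scale; points are supplemented replicate 3 and grey bars the range of the other 5 supplemented libraries. Plagl1 lies at 4.98 CPM in replicate 3, against 101.4 to 173.7 CPM in the others. Of the 10 neighbours, 6 lie below their own range by smaller distances. The share of all tested genes that do so in replicate 3 was not counted.

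The genes with patterns most like that of Plagl1 were Dip2c (rho 0.911), Ankrd11, a chromatin regulator (0.896), and Amotl1, an angiomotin-like protein (0.85). Neither Dip2c, at 56.8 CPM or more, nor Ankrd11, at 67.7 CPM or more, had a drop of that size in any library. For Mest the closest were N6amt1, a methyltransferase (rho 0.932), Atp23 (0.896) and Nsrp1 (0.871), and for H19 they were D030028A08Rik (0.882), Lrpprc (0.825) and Zfp12 (0.804). Cdkn1c and Plagl1 ran against each other, with a rho of -0.654 over 15 libraries and -0.644 without supplemented replicate 5. Igf2 and Peg3 had a rho of 0.693. For the 5 members of fewest counts the closest patterns were those of B3galnt2 for Igf2 (rho 0.864), Sept8, a septin, for Meg3 (0.843), Letm2 for Dlk1 (0.856), Flot1, a flotillin, for Cdkn1c (0.914) and Gpr35, an orphan receptor, for Peg3 (0.843). These rest on few counts of the member per library, down to 0 for Dlk1. The same holds for H19 outside supplemented replicate 5, with 0 to 54 counts per library.

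Across the diets, edgeR's quasi-likelihood test called none of the 10 members at an adjusted p under 0.05 in any of 5 comparisons. The same test called 0.00625% of the 16001 genes in deficient against adequate libraries (1 gene) and 0.0% in each of the other 4 comparisons. At an unadjusted p under 0.05, 1 member passed in deficient against adequate (15.1% of all genes), 2 in restricted against adequate (9.17%), 3 in supplemented against adequate (9.77%), 0 in deficient against restricted (7.44%) and 1 in deficient against supplemented libraries (5.45%). In the test of any difference among the 4 diets 2 members, H19 and Igf2r, passed an unadjusted p under 0.05 (9.47% of all genes) and 0 passed the adjusted one (0.00625%). limma-voom called 0 members throughout, where it called 0.00625% of genes in deficient against adequate and 0.0187% in supplemented against adequate libraries. DESeq2 called 1 member, Igf2r, in deficient against adequate libraries, where it called 3.66% of genes. Elsewhere it called no member, with 0.794% of genes in restricted and 0.637% in supplemented against adequate libraries, 0.0562% in deficient against restricted and 0.0% in deficient against supplemented libraries; it gave H19 no adjusted p. Nothing is read from these counts, since the list was chosen on the same libraries.

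In deficient against adequate libraries, 8 of the 10 members had a log2 fold change above 0, as did 52.9% of all tested genes. The members' median was 0.94, against 0.036 over all tested genes. The largest were Igf2 at 1.92 (SE 1.16), Meg3 at 1.53 (SE 1.14), H19 at 1.50 (SE 2.55) and Peg3 at 1.33 (SE 0.967), each from groups that overlap. Without deficient replicate 3, Igf2 was at -0.59, Cdkn1c at -1.14 and Peg3 at -1.04, so that single library set their direction; Igf2r was at 0.63. Igf2r was the 1 member whose deficient libraries all lay above the adequate ones, as 7.91% of all tested genes did; none was wholly lower, against 7.96%.

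In restricted against adequate libraries 5 members lay above 0 and 5 below, where 50.4% of all tested genes lay above 0. The members' median was 0.12, against 0.005 over all genes. Meg3 had a log2 fold change of 2.63 (SE 1.16), H19 2.37 (SE 2.49) and Igf2r 0.44, and these 3 had restricted libraries wholly above the adequate ones, which held for 8.37% of tested genes. No member was wholly lower, against 8.27%. For H19 the groups barely parted: the lowest restricted library had 0.863 CPM from 14 counts, and the highest adequate one 0.853 CPM from 17 counts. Mest was at -1.25 (SE 0.917), an average of 12.2 CPM in restricted and 29.1 CPM in adequate libraries, with overlapping groups; without adequate replicate 3 it was -0.47, against an adequate mean of 17.0 CPM (n = 2).

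In supplemented against adequate libraries the median of the 10 was 0.40, against 0.028 over all genes, and no member's groups were apart, where 2.14% of tested genes had all supplemented libraries higher and 2.24% all lower. H19 had the largest value, 6.69 (SE 2.58), from means of 36.6 ± 88.4 CPM (SD, n = 6) in supplemented and 0.347 ± 0.448 CPM (SD, n = 3) in adequate libraries. Without supplemented replicate 5 it was 0.52 (SE 1.09), and the supplemented mean was 0.494 ± 0.377 CPM (SD, n = 5). Mest had -0.70 (SE 0.763) with that library and -1.96 without it. Meg3 stood at 3.07 (SE 1.10), and at 2.24 without that library, where its supplemented mean was 0.810 CPM, against 1.45 CPM with it. Peg3 stood at 1.24 (SE 0.871).

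Between deficient and restricted libraries the values ran from -2.75 (SE 1.87) for Dlk1 to 2.05 (SE 1.16) for Igf2, with a median of 0.28 against 0.016 over all genes. Without deficient replicate 3, Igf2 was at -0.46, Cdkn1c at -0.52 and Peg3 at -0.56, against 2.05, 1.77 and 1.81 with it. Igf2r was wholly higher (4.71% of tested genes) and Dlk1 wholly lower (6.38%) in deficient libraries. Between deficient and supplemented libraries the median was 0.17 against 0.019 over all genes, and no member was wholly higher (1.01% of genes) or lower (0.9%). H19 had -5.19 (SE 2.31) with supplemented replicate 5 and 0.99 without it. Peg3 was at 0.09 (SE 0.815), Igf2 at 0.25 (SE 0.949) and Cdkn1c at 1.35 (SE 0.899). Without deficient replicate 3 these were -2.29, -2.26 and -0.93, so that library set the values.

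**Figure D5:**
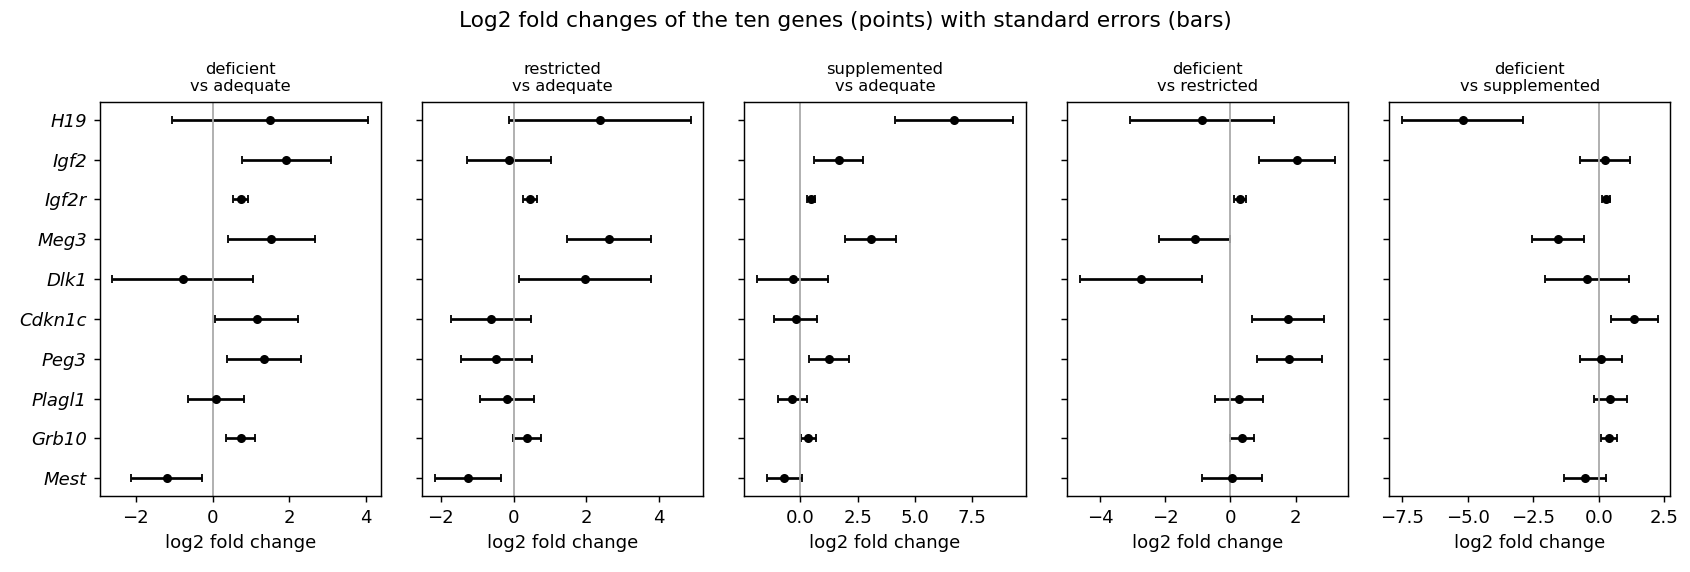
Log2 fold changes (points) and standard errors (bars) of the 10 genes in 5 diet comparisons, first diet over second, on axes that differ between panels; n = 3 libraries for each diet and 6 for supplemented. Igf2r has the shortest bars and lies above 0 in each panel, from 0.27 to 0.73, and H19 runs from -5.19 to 6.69 with the longest bars.

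Of 67 other imprinted genes listed, 56 matched an identifier and 35 passed the filter; every tested gene of the Dlk1 and Peg3 clusters was a member itself, since Rtl1, Dio3, Begain, Zim1 and Usp29 did not pass. The most abundant was Gnas, encoding a stimulatory G protein subunit, at a median of 633.1 CPM, then Cd81, a tetraspanin from the far side of the Igf2 domain, at 474.9 CPM, and H13, a signal peptide peptidase, at 97.1 CPM. edgeR called none of the 35 in any comparison, with 9, 3, 4, 3 and 4 passing an unadjusted p under 0.05 in deficient, restricted and supplemented against adequate, deficient against restricted and deficient against supplemented libraries, where 15.1%, 9.17%, 9.77%, 7.44% and 5.45% of all genes passed; limma-voom called none either. DESeq2 called 3 (3.66% of all genes), all higher in deficient than in adequate libraries: the potassium channel gene Kcnq1, Ppp1r9a, encoding neurabin, and Zrsr1. Kcnq1 stood at 4.70, 4.87 and 19.4 CPM in deficient and at 1.20, 1.304 and 0.637 CPM in adequate libraries, with the highest value in deficient replicate 3. Its log2 difference was 3.20 (SE 0.668), with an edgeR adjusted p of 0.149. Ppp1r9a averaged 53.6 CPM in deficient and 30.0 CPM in adequate libraries, a log2 difference of 0.84 (SE 0.225) with an edgeR adjusted p of 0.154. Beside Grb10, Cobl, an actin nucleator, had 34.04 CPM in deficient replicate 3 and a median of 2.28 CPM over all libraries, while Ddc, which decarboxylates aromatic amino acids, stayed at or under 0.953 CPM. Beside Igf2r, the cation transporter gene Slc22a3 reached 1.89 CPM in the same replicate. Beside Plagl1, Phactr2 ran from 23.8 to 83.9 CPM. Of the remaining genes, Nap1l4 had a median of 81.8, Ube3a, a ubiquitin ligase, 73.8, Tssc4 35.8, Osbpl5 29.8 and Impact 25.96 CPM. Of the 35, 13 had their highest level in deficient replicate 3 (22.9% of all tested genes) and 8 their lowest (19.01%).

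The IGF axis beyond Igf2 and Igf2r had 21 listed genes, 18 of them tested, and edgeR and limma-voom called none in any comparison; edgeR had 2, 1, 1, 2 and 3 at an unadjusted p under 0.05 in the same order, beside the same shares of all genes. In deficient against adequate libraries 16 of 18 lay above 0, as did 52.9% of all tested genes, with a median of 0.67 against 0.036 over all genes. DESeq2 called Igfbp7, a secreted protein of vessel walls, in that comparison (3.66% of all genes). It averaged 92.3 ± 52.9 CPM in deficient and 43.5 ± 3.29 CPM in adequate libraries (SD, n = 3 each), for a log2 difference of 1.09 (SE 0.340) and an edgeR adjusted p of 0.185, and stood at 153.3 CPM in deficient replicate 3. The most abundant binding proteins were Igfbp4 at a median of 163.0 CPM and Igfbp3 at 94.5 CPM. Igfbp6 had 51.8 CPM in deficient replicate 3 and a median of 4.90 CPM.

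The genes that keep imprints, such as DNA methyltransferases, TET enzymes and the Zfp57 and Trim28 complex, had 20 of 21 members tested. edgeR and limma-voom called none in any comparison, and edgeR had 3, 4, 3, 0 and 0 at an unadjusted p under 0.05 in the same order, again beside those shares. The medians were 0.20, 0.20 and 0.26 in deficient, restricted and supplemented against adequate libraries, which share the adequate libraries, and -0.05 and -0.04 in deficient against restricted and against supplemented libraries. DESeq2 called Smchd1, a chromatin protein of X inactivation and imprinted clusters, higher in deficient (3.66% of all genes called) and in supplemented (0.637%) than in adequate libraries. Smchd1 averaged 44.4 ± 0.573 CPM in deficient, 44.7 ± 4.71 CPM in restricted, 30.2 ± 6.42 CPM in adequate (SD, n = 3 each) and 45.7 ± 5.48 CPM in supplemented libraries (SD, n = 6), with log2 fold changes of 0.56, 0.57 and 0.60 against adequate (edgeR adjusted p = 0.185, 0.382 and 0.288). Dnmt1, the maintenance methyltransferase, averaged 185.5 ± 46.8 CPM in deficient, 222.8 ± 8.35 CPM in restricted, 147.8 ± 56.6 CPM in adequate (SD, n = 3 each) and 178.2 ± 27.5 CPM in supplemented libraries (SD, n = 6), and its groups overlapped between deficient and adequate libraries. Trim28, a corepressor, and Atrx, a chromatin remodeller, had medians of 186.6 and 144.8 CPM. Tet2, which oxidises methylated cytosine, averaged 39.9 CPM in deficient and 26.6 CPM in adequate libraries, a log2 difference of 0.58 (SE 0.230) with an edgeR adjusted p of 0.259.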

How the data were processed

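RNA from 15 lung metastases was sequenced as ribosome-depleted, strand-marked total RNA, per the labels' protocols. The authors deposited RSEM expected counts and TPM for 37620 Ensembl genes. Named were build NCBIM37 and, among tools, Bowtie2 2.2.9, edgeR and RSEM 1.30, all per the submitters' processing notes. TPM values were deposited scaled to 1 fixed sum per library, so a library rich in small structural RNAs has lower TPM for other genes. For the strand setting and annotation release: not given in the sources used here.

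Expected counts were rounded and filtered with filterByExpr (16001 genes kept), then scaled by TMM. One quasi-likelihood fit in edgeR 4.0.16 (R 4.3.3) held all 15 libraries with a mean per diet (11 residual degrees of freedom). Benjamini-Hochberg adjustment ran over all tested genes, with a threshold of 0.05; log2 CPM used a prior count of 2. DESeq2 1.42.0 and limma-voom 3.58.1 were run beside it, and the fit was tested on simulated data. Replicate numbers were assigned here in the order of the deposited samples and pair nothing. Symbols were matched by identifier. The members and all lists were chosen with earlier results of these data known. Likeness is Spearman's rho, with no test. The genes named outside the members were the 3 of highest mean CPM and the 2 of smallest p in each list, the 3 most alike genes per member (for scarce members 1 is given), and called genes. Genes called by DESeq2 alone, untested genes and neighbours were named after their values were seen. Coordinates are those of RefSeq on GRCm38.p6, not of the build used for counting. Total counts of 13107679 to 29994264 per library limit the scarce members to under 100 counts in most libraries.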

Additional observations from a re-analysis of the deposited data

Results flagged for a closer look

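In the 6 supplemented libraries, the gap of the highest or lowest library to the next, divided by the range, was compared with Dixon's critical value of 0.625, for 10 genes on the CPM and the log2 CPM scale (20 sets of values). It was past that value in 8 sets, from 6 genes. Chance flags about 1 in 20 groups of unselected values; these genes were chosen with their values known, so that rate does not apply and the 8 are a description. H19 in supplemented replicate 5 had 216.9 CPM, or 7.76 on the log2 CPM scale, against at most 0.951 CPM in the other 5. Igf2 in the same library had 6.07 CPM, Meg3 had 4.65 CPM, and Mest had 70.8 CPM, or 6.15 on the log2 CPM scale. H19 and Mest were past the value on both scales, Igf2, Meg3 and Dlk1 on the CPM scale alone, and Plagl1 on the log2 scale alone. Skeletal muscle markers were at 1901 CPM in supplemented replicate 5; their part in these levels was not tested. Plagl1 in supplemented replicate 3 had a log2 CPM of 2.35, far below the other 5 supplemented libraries. Dlk1 in supplemented replicate 4 had 0.805 CPM, from 22 counts, against at most 0.217 CPM in the other 5.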

How the results depend on the processing

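No paired analysis was possible because the labels number no replicates and tie no library to another; the numbers used here follow the order of the deposited samples and only name them. In deficient against adequate libraries edgeR called 1 gene, DESeq2 called 585, and fits without adequate 1, supplemented 5 and deficient 3 called 5. There were 0 calls with alveolar markers as a covariate, with no filter or with only the groups compared, and 0 to 4 on leaving out 1 library, the 4 without adequate replicate 1. In restricted against adequate libraries the count was 0 in edgeR, 127 in DESeq2, 42 with the alveolar covariate, 66 without those 3 libraries, and 0 to 5 on leaving out 1, with 5 without adequate replicate 1 and 2 without adequate replicate 3. In supplemented against adequate libraries it was 0 in edgeR, 102 in DESeq2, 3 in limma-voom and 2 without the 3 libraries. In deficient against restricted libraries it was 0, and 9 in DESeq2, and in deficient against supplemented libraries it was 0 in every setting run. Of the 10 members DESeq2 called 1, Igf2r, in deficient against adequate libraries, and no other setting called any. The cause of these differences was not tested. Of the members' log2 fold changes under alternatives, 660 stayed within the spread between replicates and 43 moved further, most for H19, Peg3, Cdkn1c, Dlk1 and Igf2. On the TPM scale 6 of 50 differences moved. Scaling by DESeq2 size factors moved the median of all genes by less than 0.1. Levels from a few counts have wide counting error.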
